A study of Mus musculus with 11 samples.

Results

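The ERK pathway feedback targets analysed here were 10 genes: Dusp4, Dusp5, Dusp6, Spry1, Spry2, Spry4, Spred1, Spred2, Etv4 and Etv5. They were taken by name, as the rows with these symbols in a table of 37991 counted genes. The rule used no measured value, but the set was drawn up with earlier results of these data known. Each of the 10 symbols matched 1 row. The table held 11 RNA-Seq libraries of mouse hematopoietic stem cells (HSC), the bone marrow cells that renew themselves and give rise to all blood lineages. NV HSC (3 libraries) came from mice with a conditional NrasG12D/+ allele, silenced by a loxP-flanked stop cassette until Vav-Cre removes it, so that Nras is locked toward its active form. NA10hd HSC (4 libraries) came from mice with a fusion of Nup98 to the homeodomain of Hoxa10, inserted at the ROSA26 locus behind the same kind of stop cassette and also released by Vav-Cre. Control HSC (4 libraries) came from wild type mice, described as littermates in the study's methods. All mice were C57BL/6 and 8 weeks old. Vav-Cre acts throughout the blood system and not in HSC alone. Each library came from an aliquot of 1000 cells sorted as Lin- CD48- c-Kit+ Sca1+ CD135- CD150+, whose polyA RNA was converted to cDNA and amplified. Nothing in the labels says that aliquots came from separate mice, so p-values measure only the spread between these libraries. In such bulk samples, fewer cells of a type and less RNA per cell cannot be told apart.

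The Ras-ERK pathway carries signals from cytokine and growth factor receptors. Active Ras recruits Raf kinases, which phosphorylate MEK, which phosphorylates ERK, and ERK enters the nucleus and acts on transcription factors. Part of the transcription that ERK turns on feeds back on the pathway itself. Dusp4, Dusp5 and Dusp6 encode phosphatases that remove the activating phosphates from MAP kinases, with Dusp4 and Dusp5 acting in the nucleus and Dusp6 on ERK in the cytoplasm. Spry1, Spry2 and Spry4 encode Sprouty proteins, which dampen signalling from receptors to Ras and Raf, and Spred1 and Spred2 encode related proteins that restrain Ras activation, Spred1 by way of neurofibromin. Etv4 and Etv5 encode ETS transcription factors of the PEA3 family, whose transcripts are widely used as readouts of ERK activity. For this reason, the comparison of NV with control HSC asked how these transcripts stood in stem cells with activated Nras, and that of NA10hd with control HSC asked the same of the Nup98-Hoxa10 fusion.

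Total counts ranged from 5464815 to 14283008 per library. The NA10hd replicates were the least alike: chi-square over its degrees of freedom, which is 1 where replicates vary by counting alone, was 39.7 to 62.3 for their pairs, 6.65 to 24.6 for control pairs and 15.1 to 22.4 for NV pairs. Every NV library and control replicates 2 and 3 had both Xist and Y-linked counts, NA10hd replicate 4 had Xist without Y-linked counts, and the remaining 5 libraries had Y-linked counts without Xist. All 9 HSC markers were counted in every library. In every library the summed level of each list of other cells' markers was below that of the HSC markers, and the values are given beside the results they move with. Of the targeted genes, Nras was at 113, 112 and 111 CPM in NV and between 68.2 and 93.8 CPM in control libraries, which did not overlap, but the difference missed the threshold (log2 fold change 0.41 ± 0.14 SE, edgeR adjusted p = 0.124). Counts on Nras do not separate the mutant from the normal allele. CPM are counts per 1000000 counts of the library, with the total multiplied by a TMM factor that corrects for a few abundant genes. Hoxa10 was at 57.1 CPM on average in NA10hd and 39.7 CPM in control HSC (log2 fold change 0.53 ± 0.27 SE, edgeR adjusted p = 0.459), and whether reads of the fusion were counted there was not tested.

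Levels between genes were compared per kilobase of exon. In control HSC, Dusp5 had the highest mean, 21.8 ± 8.61 CPM per kb (SD, n = 4), followed by Etv5 at 16.3 ± 3.65, Spry2 at 15.5 ± 3.50 and Spry1 at 15.0 ± 3.44 CPM per kb, and the libraries of each overlapped those of the next. Spred1 at 10.1 ± 1.02 and Spred2 at 7.53 ± 1.60 CPM per kb had lower means, and Spred1 did not overlap Spry1 but did overlap Etv5, whose lowest library was at 10.98 CPM per kb against 10.99 in the highest of Spred1. Dusp6, Spry4 and Dusp4 were the lowest of the members detected, at 2.42 ± 1.56, 0.981 ± 0.353 and 0.877 ± 0.755 CPM per kb, and overlapped each other. Etv4 had 0 counts in all 4 control libraries. In NA10hd HSC, Dusp5 again had the highest mean, 28.4 ± 25.9 CPM per kb, with an SD close to its mean, and Etv4 again had 0 counts in all 4 libraries. In NV HSC the order differed: Etv5 was first at 32.9 ± 4.87 CPM per kb (SD, n = 3) and Spry2 second at 26.3 ± 4.65. Dusp5 was sixth at 8.06 ± 3.41 CPM per kb, and its libraries overlapped those of Spred2 above it but not those of Dusp6 below it, at 3.25 ± 0.600.

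**Figure D1:**
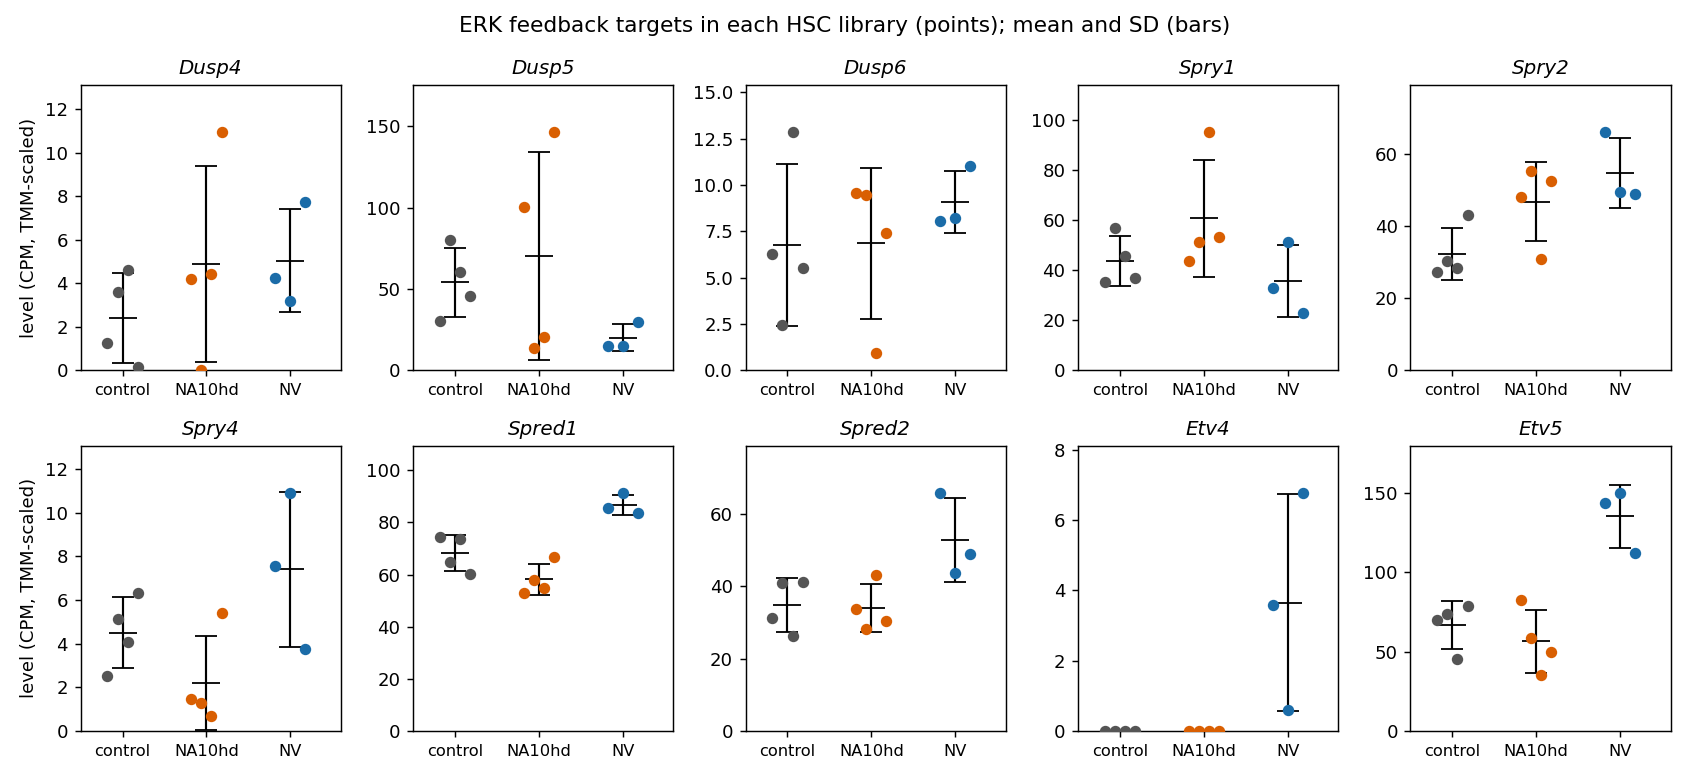
Level of each of the 10 members (CPM, y axis from 0, scaled separately for each gene) in the 4 control, 4 NA10hd and 3 NV libraries; each point is a library, and the bars give the mean and SD of its group. Etv5 and Etv4 lie higher in every NV library than in all others, Dusp5 lies lower in every NV library than in every control library, and the NA10hd points of Dusp5 spread from 13.8 to 146 CPM.

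Between NV and control HSC, 2 of the 9 members tested passed the threshold, in opposite directions. Etv5 was 2.02-fold higher and Dusp5 2.74-fold lower in NV HSC. A gene was called when its edgeR adjusted p was under 0.05 and its fold change above 1.5, and 4.76% of all 13462 genes tested were called, 2.55% higher and 2.21% lower. At an unadjusted p under 0.05 stood 5 members, Etv5, Dusp5, Spry2, Spred1 and Spred2, and 19.5% of all genes. The libraries of the 2 groups did not overlap for 4 tested members that were higher (Etv5, Spry2, Spred1, Spred2) and for 1 that was lower (Dusp5), against 9.49% and 9.37% of all genes. The log2 fold change was above 0 for 7 of 9 members and for 48.6% of all genes, and its median was 0.60 over the 9 members and -0.01 over all genes. Etv4 did not pass the filter on low counts, and the median was 0.65 over 10 members with Etv4 at the lower bound given below.

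Etv5 (ENSMUSG00000013089, chromosome 16, 22381382 to 22439792 of NCBIM37, minus strand) carried the clearest increase. Its level was 143, 150 and 112 CPM in the 3 NV libraries and 70.1, 73.5, 45.0 and 78.8 CPM in the 4 control libraries. All 3 NV libraries were above all 4 control libraries, and the lowest NV library was well clear of the highest control library. The log2 fold change was 1.01 ± 0.19 SE (edgeR adjusted p = 0.00916). The call was lost without NV replicate 2, at a log2 fold change of 0.93 and an edgeR adjusted p of 0.0553, and when all 3 groups shared 1 fit, at 1.02 and an edgeR adjusted p of 0.0803. Within libraries that had both Xist and Y-linked counts, Etv5 was higher by 1.19 on the log2 scale (edgeR adjusted p = 0.0356), with 3 NV and 2 control libraries. The promoter of Etv5, as the 100 bases before each of its 2 start sites in the RefSeq table of GRCm38.p6, is shown because Etv5 was the member called in 2 comparisons.
Etv5, first start, chr16:22439571-22439670, minus strand: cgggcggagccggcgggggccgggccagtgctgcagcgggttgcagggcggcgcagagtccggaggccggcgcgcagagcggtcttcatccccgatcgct
Etv5, second start, chr16:22438369-22438468, minus strand: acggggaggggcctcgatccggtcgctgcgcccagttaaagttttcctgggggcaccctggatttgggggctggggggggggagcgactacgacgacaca
None of the letters searched was in either, so no base stands in capitals.

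Etv4 (ENSMUSG00000017724, chromosome 11, 101631056 to 101646685, minus strand), the close relative of Etv5, was counted only in NV HSC. It had 45, 9 and 70 counts in the 3 NV libraries, or 3.58, 0.609 and 6.76 CPM, and 0 counts in each of the 4 control and 4 NA10hd libraries. The NV libraries themselves thus spread widely, with NV replicate 2 far below the other 2, and a count of 0 limits what could be detected. Taking 3 counts over all 35904381 control counts as the limit of detection gave 0.0836 CPM, against which the mean NV level of 3.76 CPM by library total was at least 45.1-fold higher. Against the limit of 0.0745 CPM over the NA10hd libraries it was at least 50.5-fold higher. Both bounds rest much on NV replicate 3, without which they were 25.6-fold and 28.7-fold. Such limits cover counting error only. Etv4 had too few counts for the filter and so had no test beside the other members. Without the filter it was called (edgeR adjusted p = 0.00348). It was also called without NV replicate 2, its lowest NV library (edgeR adjusted p = 0.0176). In that fit it passed the filter only through the other NV libraries, where it was high, so that call adds no support. In libraries that had both Xist and Y-linked counts it was not called (edgeR adjusted p = 0.0701).

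Dusp5 (ENSMUSG00000034765, chromosome 19, 53603599 to 53616921, plus strand), the nuclear phosphatase of ERK, went the other way. Its level was 15.1, 15.0 and 29.7 CPM in the NV libraries and 30.2, 80.1, 60.1 and 45.5 CPM in the control libraries. The groups did not overlap, but the highest NV library and the lowest control library were close, at 29.7 and 30.2 CPM. NV HSC had a log2 fold change of -1.45 ± 0.34 SE against control HSC (edgeR adjusted p = 0.0260). The call was lost without NV replicate 1 (edgeR adjusted p = 0.103), without NV replicate 2 (edgeR adjusted p = 0.132), without control replicate 2 (edgeR adjusted p = 0.0614) and with all 3 groups in 1 fit (edgeR adjusted p = 0.406), where the log2 fold change lay between -1.45 and -1.20. Within libraries with both Xist and Y-linked counts it was -1.82 (edgeR adjusted p = 0.0248). The promoter of Dusp5 held a pair of abutting CArG boxes, the letters bound by serum response factor, and is shown for that reason, with the boxes in capitals, at 82 to 63 bases before the start.
Dusp5, chr19:53529038-53529107 of GRCm38.p6, plus strand: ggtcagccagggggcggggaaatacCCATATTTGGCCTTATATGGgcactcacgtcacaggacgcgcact
A CArG box stood in 1.63% of 32851 RefSeq promoters of 300 bases, and 6 of them held 2 or more. It was searched only after the promoters had been read, so these shares do not test its presence in Dusp5.

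The other phosphatases among the members had low and scattered counts. Dusp6 (ENSMUSG00000019960, chromosome 10, 98725865 to 98730122, plus strand), the cytoplasmic phosphatase of ERK, was at 8.04, 8.19 and 11.01 CPM in NV and at 6.26, 2.46, 12.8 and 5.51 CPM in control libraries. The groups overlapped, and the log2 fold change was 0.41 ± 0.47 SE (edgeR adjusted p = 0.707). Dusp4 (ENSMUSG00000031530, chromosome 8, 35870351 to 35882948, plus strand) was at 4.22, 3.18 and 7.73 CPM in NV and at 1.25, 3.60, 4.62 and 0.135 CPM in control libraries, the last of these being a single count. It too overlapped, with a log2 fold change of 1.02 ± 0.77 SE (edgeR adjusted p = 0.533). With errors of this size, a change of 1.5-fold was not detectable at this depth. The promoter of Dusp6 is shown for letters of the kind bound by the ERK-regulated repressor Capicua, TGAATGGA or TCAATGGA, here on the other strand and in capitals, 24 to 17 bases before the start, with another copy in the first 8 bases after it.
Dusp6, chr10:99263182-99263230 of GRCm38.p6, plus strand: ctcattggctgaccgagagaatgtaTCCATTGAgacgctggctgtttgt
These letters stood in 1.88% of all promoters, and were searched only after the promoters had been read.

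Of the Sprouty genes, Spry2 (ENSMUSG00000022114, chromosome 14, 106291166 to 106296036, minus strand) came nearest to the threshold. Its level was 66.1, 49.5 and 49.0 CPM in the NV libraries and 27.2, 30.3, 28.5 and 43.0 CPM in the control libraries. All NV libraries were above all control libraries, of which control replicate 4 was the nearest. The log2 fold change was 0.76 ± 0.21 SE, 1.70-fold, and its edgeR adjusted p of 0.0538 lay just above the threshold. Over the alternatives the adjusted p ran from 0.0101, with DESeq2, to 0.198, and Spry2 passed with DESeq2, without the low-count filter, with at least 10 counts in every library and without control replicate 4. Spry1 (ENSMUSG00000037211, chromosome 3, 37538869 to 37543520, plus strand) was at 33.0, 51.3 and 22.8 CPM in NV and at 35.0, 56.9, 45.5 and 36.9 CPM in control libraries. Its groups overlapped, with a log2 fold change of -0.29 ± 0.27 SE (edgeR adjusted p = 0.620). The promoter of Spry2 is shown because it was the only member promoter with the Capicua letters TGAATGAA or TCAATGAA, on the other strand and in capitals, 54 to 47 bases before the start.
Spry2, chr14:105896841-105896898 of GRCm38.p6, minus strand: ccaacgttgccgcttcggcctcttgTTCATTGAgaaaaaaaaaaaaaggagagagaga
These letters stood in 2.03% of all promoters.

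Spry4 (ENSMUSG00000024427, chromosome 18, 38745922 to 38760922, minus strand) was at 7.56, 10.9 and 3.77 CPM in NV and at 2.50, 5.12, 4.07 and 6.32 CPM in control libraries. The groups overlapped, since NV replicate 3 lay below 3 of the 4 control libraries. Its log2 fold change was 0.71 ± 0.47 SE (edgeR adjusted p = 0.460). Spred1 (ENSMUSG00000027351, chromosome 2, 116947110 to 117008015, plus strand) was the least variable member, at 85.4, 91.2 and 83.6 CPM in NV and 74.5, 65.0, 73.6 and 60.1 CPM in control libraries. The groups did not overlap, but the log2 fold change of 0.34 ± 0.14 SE was small and missed the threshold (edgeR adjusted p = 0.196). Spred2 (ENSMUSG00000045671, chromosome 11, 19824378 to 19924029, plus strand) was at 65.7, 43.5 and 49.0 CPM in NV and 31.1, 40.8, 26.2 and 41.0 CPM in control libraries. It too did not overlap, NV replicate 2 being only just above the highest control library, and its log2 fold change was 0.60 ± 0.22 SE (edgeR adjusted p = 0.142).

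**Figure D2:**
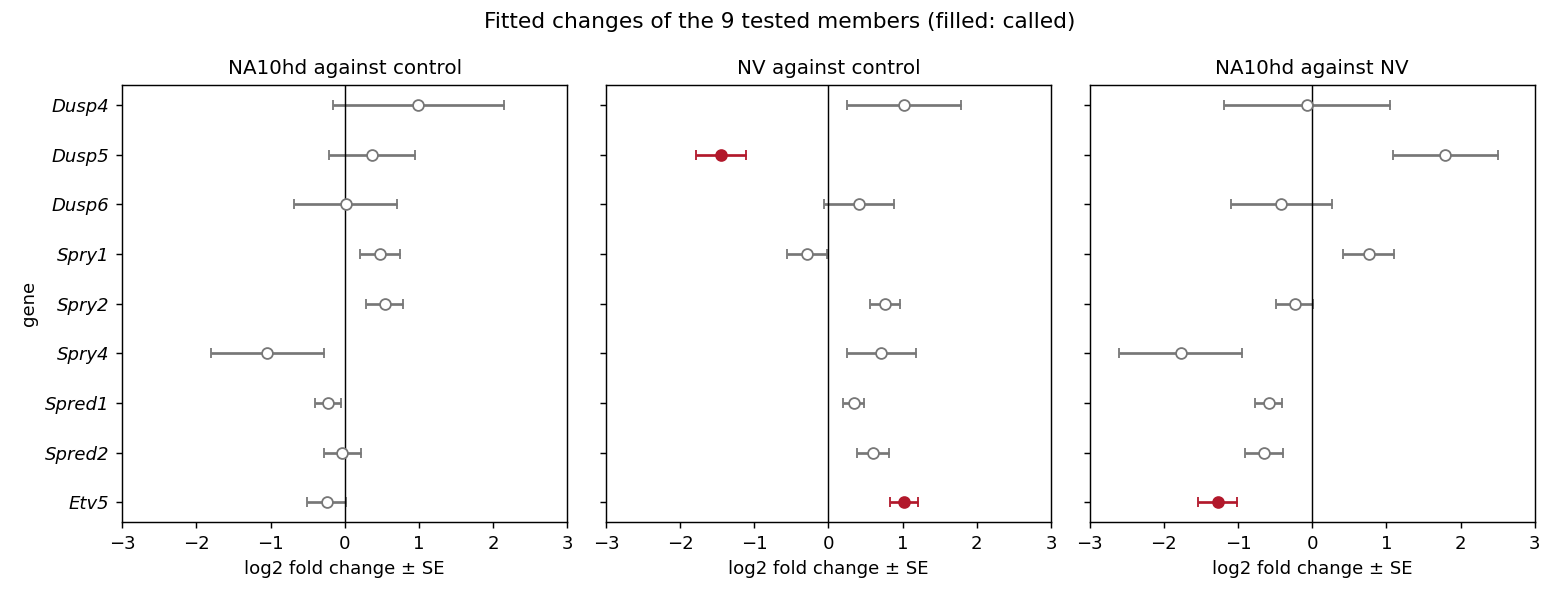
Fitted log2 fold change (x axis) of the 9 members tested, with SE bars, in the 3 comparisons, NA10hd against control, NV against control and NA10hd against NV; filled points were called. Etv5 (log2 fold change 1.01) and Dusp5 (-1.45) are the filled points in NV against control and Etv5 (-1.27) in NA10hd against NV, and no point is filled in NA10hd against control.

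Markers of other cell types moved with the NV libraries. The summed level of 5 megakaryocyte markers was 182 to 443 CPM in NV and 89.2 to 111 CPM in control libraries, with Itga2b, Ppbp and Pf4 called higher of 5 tested. That of 5 erythroid markers was 42.6 to 80.3 CPM in NV and 18.4 to 24.9 CPM in control libraries, with Klf1 and Epor called higher of 2 tested. That of 5 endothelial markers was 126 to 136 CPM in NV and 183 to 224 CPM in control libraries, with Emcn called lower of 4 tested. Of the 9 HSC markers, Ly6a was called higher and Procr and Fgd5 lower, and their sum was 1950 to 2406 CPM in NV and 2258 to 2863 CPM in control libraries. Of 3 multipotent progenitor markers none was called, of 5 myeloid markers 1 was tested and not called, with Ctsg at 0 in every library, and of 5 lymphoid markers none could be tested, with Cd3e, Il7r and Dntt at 0. The part of these cells in the levels of Etv5, Etv4 and Dusp5 was not tested.

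The other genes of the pathway stood in 6 lists, written from general knowledge but with earlier results of these data known. They gave calls in 2 lists, and all of these were lower in NV HSC, where 2.21% of all genes tested were called lower. Of the 5 other MAP kinase phosphatases tested, out of 7, Dusp1 and Dusp2 were called lower in NV HSC. Like Dusp5, both encode nuclear enzymes that are induced within minutes of a stimulus. Dusp1 was at 474, 346 and 289 CPM in NV and 755, 575, 645 and 754 CPM in control libraries (log2 fold change -0.89 ± 0.16 SE, edgeR adjusted p = 0.00840), and Dusp2 at 294, 239 and 223 CPM in NV and 615, 462, 419 and 711 CPM in control libraries (-1.14 ± 0.18 SE, edgeR adjusted p = 0.00379). Both were lower in every NV library than in every control library. Of 7 immediate early genes tested, out of 8, 6 were called lower and 0 higher: Fos, Fosb, Jun and Junb, which encode subunits of AP-1, the zinc finger factor Egr1, and Ier2. Their median log2 fold change was -1.04, against -0.01 over all genes. Egr1 had the smallest adjusted p, at 481, 461 and 460 CPM in NV and 1282, 1016, 1092 and 1352 CPM in control libraries (log2 fold change -1.35 ± 0.11 SE, edgeR adjusted p = 8.59e-05). The log2 fold changes of the others were -1.41 ± 0.17 SE for Fosb, -1.06 ± 0.17 for Fos, -1.04 ± 0.12 for Jun, -0.997 ± 0.15 for Junb and -0.89 ± 0.14 for Ier2, with edgeR adjusted p from 0.000842 to 0.00359. With all 3 groups in 1 fit the calls of Dusp1, Fos, Jun, Junb and Ier2 were lost (edgeR adjusted p from 0.0725 to 0.249), and that of Dusp1 was also lost without NV replicate 2 (edgeR adjusted p = 0.0517) and within libraries that had both Xist and Y-linked counts (log2 fold change -0.73, edgeR adjusted p = 0.0871).

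The remaining lists had no call in NV against control HSC. This held for 7 other ERK-induced transcripts tested, among them Myc and Ccnd1 (median log2 fold change 0.38), for 17 genes of the core pathway such as Grb2 and Sos1 (0.17), and for 9 transcription factors under ERK control, such as Cic and Elk1 (-0.16). Of the relatives of the members, only Spred3 could be tested, at a log2 fold change of 0.30. Hras and Spry3 matched no symbol in the table. The 2 members called were thus of opposite sign, and the lower of them, Dusp5, shared its direction with Dusp1, Dusp2 and the 6 immediate early genes.

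**Figure D3:**
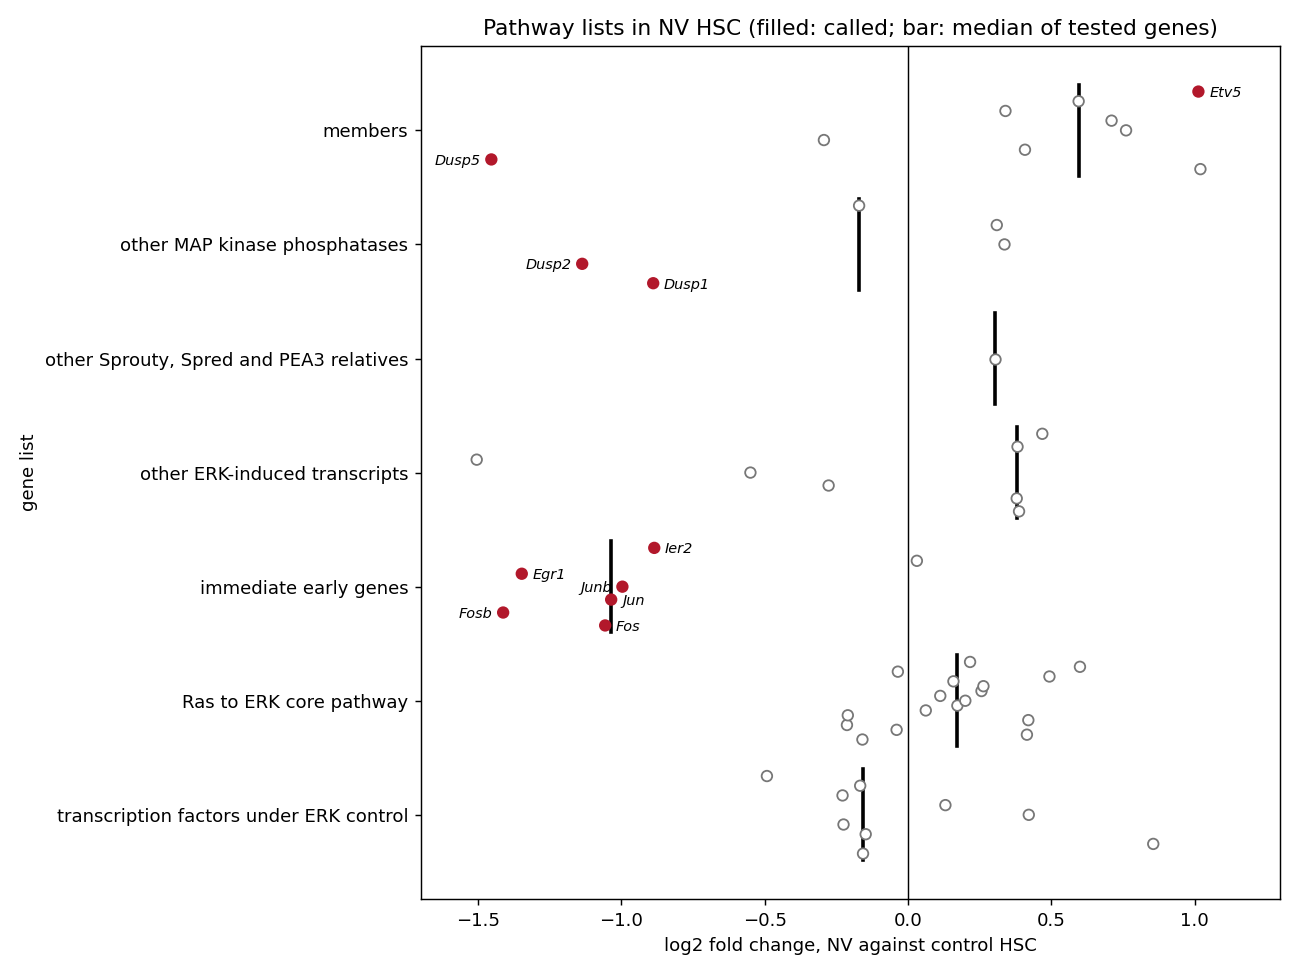
Log2 fold change between NV and control HSC (x axis) of each tested gene of the members and of the 6 other pathway lists (y axis); each point is a gene, filled and named where called, points are spread vertically for sight only, and the black bar is the median of the list. Of the 7 immediate early genes, 6 lie between -1.41 and -0.89 and 1 at 0.03, Dusp2 and Dusp1 lie at -1.14 and -0.89, and 7 of the 9 members lie above 0.

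Between NA10hd and control HSC, no member passed the threshold and none had groups that did not overlap. Of all 13060 genes tested, 0.00766% were called, which was 1 gene, so that a count of 0 among 9 members had little to be read against. At an unadjusted p under 0.05 stood 1 member, Spry2, and 11.9% of all genes. DESeq2 also called 0 members, but the share of all genes that it called is not reported here, so this 0 cannot be read against it. The log2 fold change was above 0 for 5 of 9 members and 51.5% of all genes, with a median of 0.01 over the members and 0.02 over all genes. The groups did not overlap for 3.89% of all genes in the higher and 3.94% in the lower direction.

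The 2 members called in NV HSC had wide or overlapping values in NA10hd HSC. Etv5 was at 82.5, 58.6, 34.9 and 49.5 CPM in the NA10hd libraries, which reached from below the lowest to just above the highest control library, with a log2 fold change of -0.24 ± 0.26 SE (edgeR adjusted p = 0.764). Dusp5 was at 100, 13.8, 20.5 and 146 CPM, so that NA10hd replicates 1 and 4 lay above and replicates 2 and 3 below every control library. Its log2 fold change of 0.37 ± 0.58 SE (edgeR adjusted p = 0.854) therefore says little of any 1 library, and it turned to -0.28 without NA10hd replicate 4.

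Among the Sprouty and Spred genes, Spry2 was at 48.2, 55.5, 31.0 and 52.7 CPM in NA10hd HSC. Of these, 3 lay above every control library and NA10hd replicate 3 among them, with a log2 fold change of 0.54 ± 0.25 SE (edgeR adjusted p = 0.419). Spry1 was at 43.4, 51.1, 94.9 and 53.1 CPM, with replicate 3 the highest and the others inside the control range (0.48 ± 0.27 SE, edgeR adjusted p = 0.504). Spry4 was at 1.48, 1.27, 0.691 and 5.39 CPM, with 3 libraries below every control library and replicate 4 above 3 of them (-1.04 ± 0.76 SE, edgeR adjusted p = 0.627). Spred1, at 53.1, 57.9, 55.0 and 66.7 CPM, and Spred2, at 33.8, 28.1, 43.1 and 30.4 CPM, had log2 fold changes of -0.23 ± 0.18 and -0.03 ± 0.25 SE (edgeR adjusted p = 0.649 and 0.969). Replicate 3 was thus the lowest of the NA10hd libraries for Spry2 and Spry4 and the highest for Spry1 and Spred2.

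The phosphatases with low counts also varied between libraries. Dusp4 was at 4.18, 0, 4.41 and 10.9 CPM in NA10hd HSC, where the 0 of replicate 2 came with 12180230 total counts, the largest of that group. Its log2 fold change was 0.99 ± 1.15 SE (edgeR adjusted p = 0.789). Dusp6 was at 9.59, 9.47, 0.950 and 7.38 CPM, with replicate 3 far below the others (0.01 ± 0.69 SE, edgeR adjusted p = 0.998). None of the 6 other pathway lists had a call in this comparison, and none of the markers of other cell types was called.

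When NA10hd and NV HSC were compared directly, 1 of the 9 members tested passed the threshold, Etv5. Etv5 was 2.41-fold lower in NA10hd than in NV HSC, with a log2 fold change of -1.27 ± 0.26 SE (edgeR adjusted p = 0.0202), and every NA10hd library lay below every NV library. Here 5.09% of all 13461 genes tested were called, 2.79% of all lower and 2.3% higher in NA10hd HSC. The call was lost without any 1 of the 3 NV libraries, at an edgeR adjusted p of 0.0895 without replicate 1, 0.117 without replicate 2 and 0.0664 without replicate 3. This test does not use the control libraries, which both other comparisons share. Spred1 and Spred2 were also lower in every NA10hd library than in every NV library, as 11.3% of all genes were, but missed the threshold (log2 fold changes -0.58 ± 0.18 and -0.65 ± 0.25 SE, edgeR adjusted p = 0.0965 and 0.182).

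The largest differences of the other members had large errors. Dusp5 had a log2 fold change of 1.80 ± 0.70 SE (edgeR adjusted p = 0.179), as NA10hd replicates 2 and 3 overlapped the NV libraries. Spry4 had -1.77 ± 0.83 SE (edgeR adjusted p = 0.265) and Spry1 0.76 ± 0.34 SE (edgeR adjusted p = 0.252). Spry2, Dusp6 and Dusp4 had -0.24 ± 0.25, -0.42 ± 0.68 and -0.07 ± 1.12 SE (edgeR adjusted p from 0.687 to 0.985). In all, 5 members and 19.5% of all genes had an unadjusted p under 0.05. The log2 fold change was above 0 for 2 of 9 members and 50.8% of all genes, and 0 members were higher without overlap, as 9.63% of all genes were. The median over the 9 members was -0.42, against 0.01 over all genes, and -0.50 over 10 members with Etv4 at its bound. Without the low-count filter Etv4 was called lower in NA10hd HSC (edgeR adjusted p = 0.0190).

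Of the other pathway lists, higher levels in NA10hd than in NV HSC were called for Dusp2 (log2 fold change 0.86 ± 0.22 SE), for Ier3, an early response gene (1.18 ± 0.25), and for 3 of 7 immediate early genes, Junb (1.58 ± 0.27), Egr1 (1.42 ± 0.34) and Ier2 (1.07 ± 0.26), with edgeR adjusted p from 0.00755 to 0.0459. NA10hd replicate 4 had 486 CPM of Egr1, close to the NV libraries, while the other NA10hd libraries were at 1244 CPM and above. With a library left out, the call of Junb was lost without NV replicate 3 (edgeR adjusted p = 0.0687), and those of Dusp2, Ier3, Egr1 and Ier2 without any 1 of the 3 NV libraries (edgeR adjusted p from 0.0974 to 0.234). Calls were also lost without NA10hd replicate 1, 2 or 3 for Egr1, 1 or 3 for Ier2 and 2 or 3 for Dusp2 (edgeR adjusted p from 0.0510 to 0.0798). Marker genes moved here as well: the megakaryocyte markers Itga2b, Ppbp and Pf4 and the erythroid Klf1 were called lower, and Hlf, Procr and Fgd5 of the HSC list, Emcn and Kdr of the endothelial list and Prtn3 of the myeloid list higher in NA10hd HSC. The summed levels in NA10hd libraries were 60.1 to 117 CPM for megakaryocyte, 15.6 to 31.8 CPM for erythroid, 180 to 256 CPM for endothelial, 358 to 546 CPM for myeloid and 2494 to 3180 CPM for HSC markers, and the myeloid sum in NV libraries was 244 to 309 CPM. Their part in the level of Etv5 was not tested.

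**Figure D4:**
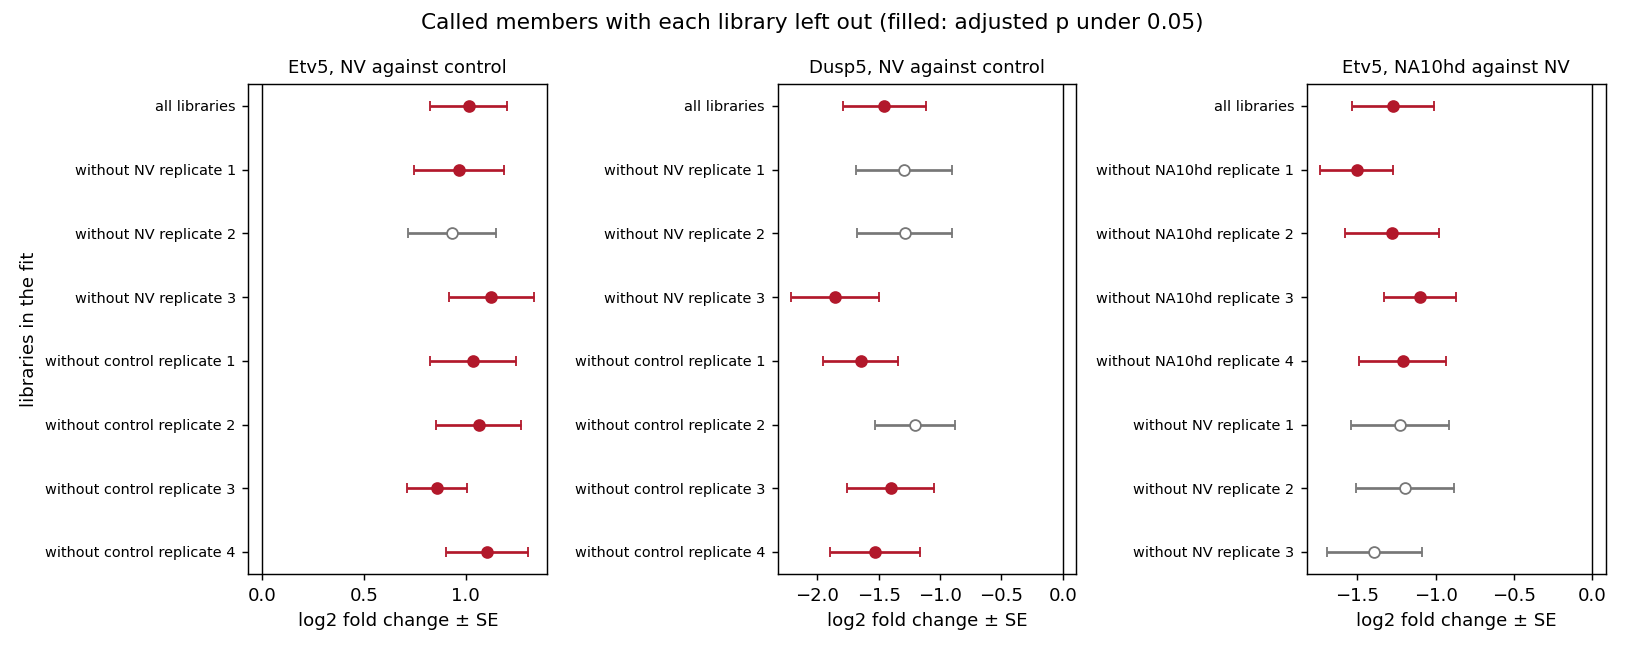
Log2 fold change with SE bars (x axis) of the members called, with all libraries and with each library left out in turn (y axis): Etv5 and Dusp5 in NV against control HSC and Etv5 in NA10hd against NV HSC. Filled points had an edgeR adjusted p under 0.05; the direction was kept in every fit, while open points mark the fits in which the call was lost.

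The letters of 4 factors were searched on both strands of the promoters of the members, from 250 bases before to 50 after the start. The RefSeq table held 7 of the 10 members: Dusp5, Dusp6, Spry1, Spry2, Spred1, Spred2 and Etv5. Of these, 0 held the ETS letters CCGGAAGT, which stood in 3.89% of all promoters, 0 the AP-1 letters TGANTCA (7.81%), 0 the CRE letters TGACGTCA (1.79%) and 1, Spry2, the Capicua letters. The promoters of the members called in NV HSC, Etv5 and Dusp5, thus shared none of the letters searched. A match describes these letters only, and no match says only that they are not in this window.

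Across all 11 libraries, the genes whose pattern was most like that of Etv5 were Add3, Serpinb1a and Hdac6. Likeness was the root mean square difference in log2 CPM from the gene's own mean, over 10696 genes with a mean of at least 5 CPM. It was 0.267 for Add3, 0.275 for Serpinb1a and 0.280 for Hdac6, while Etv5 itself varied by 0.636 about its mean. Dusp5 varied more, by 1.13, and its nearest genes were farther off: BC017612 at 0.512, Klf9 at 0.594 and Col16a1 at 0.617. Dusp6 varied by 0.980, with Atp7a at 0.465, Donson at 0.537 and 1700066M21Rik at 0.539 as its nearest genes. None of the 9 genes named was a member.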

How the data were processed

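The authors made Nextera XT libraries from amplified cDNA of 1000-cell aliquots and sequenced them on a NextSeq500. HISAT2 placed the reads on NCBIM37, and featureCounts gave the deposited raw counts per gene, which carry no normalization. Versions, annotation release, strand setting and handling of multiply mapped reads are not given in the sources used here. Symbols and positions came from GENCODE vM1 on NCBIM37, which held 37205 of 37991 IDs. No member overlapped another annotated gene.

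Each of the 3 comparisons was fitted on its own libraries with edgeR 4.0.16 in R 4.3.3 (TMM, filterByExpr, quasi-likelihood test), with Benjamini-Hochberg adjustment over all genes tested. SE was the log2 fold change divided by the root of F. The fit was checked on simulated counts. Alternatives were DESeq2 1.42.0, its size factors within edgeR, no low-count filter, at least 10 counts in every library, all 3 groups in 1 fit, a replicate block, a fit limited to libraries alike in Xist and Y-linked counts, no fold threshold, and leaving out each library in turn. Same-numbered libraries did not deviate together (r from -0.107 to 0.031), so the numbers were not treated as pairs.

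The members and lists were chosen with earlier results of these data known. Named were all members, called list genes, targeted genes, and the 3 nearest genes of Dusp6 and of called members. The CArG box and the letters TGAATGGA or TCAATGGA were added after the promoters had been read. Promoters were RefSeq sequences of GRCm38.p6, a different build from the counts. Protein sequences were not used here. Reads carry no molecular identifiers. Values of some list and marker genes are not reported here.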

Additional observations from a re-analysis of the deposited data

Results flagged for a closer look

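Dusp6 in NA10hd replicate 3, at 0.950 CPM from 11 counts, stood apart from the other 3 NA10hd libraries, and its gap to the nearest on the log2 scale took 0.881 of the range of the group, above Dixon's 95% critical value for 4 samples. It was 1 of 18 such checks, and chance flags about 1 in 20 groups. Etv5 differed between the effects of NA10hd and NV in the direct test of the 2 mutants, at a log2 fold change of -1.27 (NA10hd minus NV).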

How the results depend on the processing

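In NV against control HSC, the number of members called higher was 1, and became 2 with DESeq2, 3 without the low-count filter, 2 with at least 10 counts in every library, 0 with all 3 groups in 1 fit, and 1 to 2 with a library left out (2 without control replicate 4). Without NV replicate 2 the 1 member called higher was Etv4, not tested in the main fit, while Etv5 lost its call. The number called lower was 1, and became 0 with all 3 groups in 1 fit and 0 to 1 with a library left out (0 without NV replicate 1, NV replicate 2 or control replicate 2). In NA10hd against NV HSC, the number called lower was 1, and became 2 without the low-count filter and 0 to 1 with a library left out (0 without any 1 NV library). The median of the members ran from -0.028 to 0.425 in NA10hd against control HSC with a library left out (highest without control replicate 3) and from -0.591 to -0.086 in NA10hd against NV HSC (nearest 0 without NA10hd replicate 3). The cause was not tested.

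No reversed value had been called. In NA10hd against control HSC, Dusp5 turned to -0.139 with the replicate block and ran from -0.282 (without NA10hd replicate 4) to 0.708 with a library left out, Dusp6 was -0.002 with at least 10 counts in every library and ran from -0.269 to 0.533 with a library left out (below 0 without NA10hd replicate 1, 2 or 4 or control replicate 1, 2 or 4), and Spred2 from -0.18 to 0.054 (above 0 without NA10hd or control replicate 2 or 4). In NA10hd against NV HSC, Dusp4 ran from -0.821 to 0.374 (at 0 or above without NA10hd replicate 1, NA10hd replicate 2 or NV replicate 3). Over all alternatives that gave an adjusted p, that of Etv5 in NV against control HSC ran from 1.5e-05 to 0.0803, that of Dusp5 from 0.000225 to 0.406, and that of Etv5 in NA10hd against NV HSC from 0.000313 to 0.117, each by edgeR or DESeq2.

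The replicate block changed no call of a member: Etv5 was at a log2 fold change of 1.12 (edgeR adjusted p = 0.00558) and Dusp5 at -1.48 (edgeR adjusted p = 0.0293) in NV against control HSC, and Etv5 at -1.28 (edgeR adjusted p = 0.0120) in NA10hd against NV HSC. These fits left out control or NA10hd replicate 4, which has no NV library of the same number, and in the last of them Dusp2 and Ier3 lost their calls. Libraries with the same Xist and Y-linked counts in NA10hd and NV HSC did not exist, so that alternative was not run there. Of the list genes and targeted genes that are not members, 183 of 219 refits kept direction and call and 36 lost the call, none reversed. The SE of Dusp4, Dusp6 and Spry4, near 0.5 or above on the log2 scale, limits what their counts can show.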
